A study of Rattus norvegicus with 6 samples.

Results

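The poly(ADP-ribose) polymerase (PARP) family was examined in RNA captured from GH4C1, an established line of rat pituitary cells that makes growth hormone and prolactin. Genes were taken by name from a list of 10 (Parp followed by a number). Parp11 and Parp12 are named alike but were not on that list, and they are given with the other family genes. Of the 10 names, 9 matched 1 gene each among the 32883 genes of the count table: Parp1, Parp2, Parp3, Parp6, Parp8, Parp9, Parp10, Parp14 and Parp16. Parp4 was not matched by name, so its counts were not analysed here, although its promoter window was searched. The family was chosen by its measured read counts with pool A against pool B, which had been seen when it was proposed. The differences between pools given for its members are therefore descriptions, and the calls that count them are not independent evidence.

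All 6 libraries came from wild type GH4C1 cells treated with psoralen, which links paired strands of nucleic acid covalently. RNA was retrieved with oligo pool A (3 libraries) or oligo pool B (3 libraries) to find RNAs that touch Neat1, the long noncoding RNA that scaffolds paraspeckles. The labels do not say what the oligonucleotides of either pool bind, or whether one pool is a control. They also do not say whether the libraries of a pool came from separate cultures, so the spread between them may be technical.

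PARP enzymes transfer ADP-ribose from NAD+ onto proteins or nucleic acids. Parp1 and Parp2 build chains of ADP-ribose at DNA breaks and thereby recruit repair factors, whereas many of the other enzymes add single units. Other proteins read these marks or remove them. What was measured here is reads of captured RNA assigned to each gene, not enzyme amount or activity. More captured RNA cannot be told apart from more RNA in the starting material, since input RNA was not analysed here.

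Total counts per library lay between 1826390 and 3685899, and 3 counts, the limit that a count of 0 allows, corresponded to between 0.814 and 1.64 CPM, the count scaled to 1000000 counts per library. Pool differences are log2 fold changes of pool A over pool B from edgeR, so negative values mean more with pool B. Over the 11582 genes tested, 40.6% passed an adjusted p of 0.05, of which the pool A side made up 18.6% of all genes and the pool B side 22.0%, and the median log2 fold change was 0.02. The lineage markers Gh1, Prl and Pou1f1 had reads in every library, while Ghrhr was at 0. Prl was higher with pool A (0.83 ± 0.14 SE) and Chgb, a granin, with pool B (-2.94 ± 0.17 SE). Gh1 and Pou1f1 did not pass the threshold. The summed level of the 5 listed markers, Chgb included, was between 4503 and 5244 CPM with pool A and between 28336 and 35379 CPM with pool B. This sum is mostly Chgb, which had means of 3742 CPM with pool A and 31688 CPM with pool B. Of 9 markers of other pituitary cell types, Fshb and Tshb were at 0, and the summed level of the 9 was between 59.1 and 77.8 CPM with pool A and between 70.9 and 86.6 CPM with pool B. Among them Lhb was higher with pool B (log2 fold change -1.68 ± 0.28 SE) and Sox2 with pool A (1.13 ± 0.24 SE). The part of these markers in the results below was not tested.

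Sequences upstream of 3 members are shown for their features: the shared start region of Parp2 and the ribonuclease P RNA gene Rpph1, the GC-rich start of the founding member Parp1, and the interferon-type element of Parp14. Each is the 250 bases before the annotated start, from RefSeq on GRCr8, which may not be the build behind the counts. None is part of the transcript annotated from that start. Capitals mark the octamer ATGCAAAT or its reverse complement in Parp2 (chr15:26507409-26507658, plus strand), the GC box GGGCGG or its reverse complement in Parp1 (chr13:94839234-94839483, plus strand), and GAAA, any 2 bases and GAAA in Parp14 (chr11:78407884-78408133, plus strand).
Parp2: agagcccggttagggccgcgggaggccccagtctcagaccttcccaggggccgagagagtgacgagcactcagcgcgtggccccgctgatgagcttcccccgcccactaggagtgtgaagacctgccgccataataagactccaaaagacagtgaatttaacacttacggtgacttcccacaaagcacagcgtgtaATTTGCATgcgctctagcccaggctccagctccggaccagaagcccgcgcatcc
Parp1: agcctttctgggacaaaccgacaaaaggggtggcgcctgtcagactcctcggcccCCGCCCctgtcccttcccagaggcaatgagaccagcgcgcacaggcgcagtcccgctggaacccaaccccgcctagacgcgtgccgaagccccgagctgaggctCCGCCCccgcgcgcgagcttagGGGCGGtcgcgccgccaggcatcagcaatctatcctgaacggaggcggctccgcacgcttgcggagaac
Parp14: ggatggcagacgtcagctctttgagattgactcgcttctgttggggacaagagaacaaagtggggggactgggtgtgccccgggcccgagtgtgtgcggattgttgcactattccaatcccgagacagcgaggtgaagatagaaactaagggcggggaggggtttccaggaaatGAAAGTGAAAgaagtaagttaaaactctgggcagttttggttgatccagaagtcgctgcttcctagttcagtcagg

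Promoter windows were listed for 9 of the 10 named genes, all but Parp10, which was not searched. On either strand, the octamer was found in 1 of them (Parp2) and in 1.56% of all 33469 windows of this length. The element GAAA, any 2 bases and GAAA, a short form of the site bound by interferon-activated factors, was found in 2 (Parp14 and Parp4) and in 3.41% of all windows. The GC box was found in 7 of the 9 and in 30.5% of all windows, and TATAAA in 0 of the 9 against 12.9%. The first 80 bases of the Parp2 window lie inside the RefSeq interval of Rpph1. The RefSeq gene interval of Parp2 begins further upstream than the start used for this window, and Rpph1 lies inside that wider interval. A match of letters is a description and does not show that a factor binds.

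Of the 9 members, 7 had fold changes below 0, so more reads with pool B, with Parp6 joining them when scaled by total counts alone. Among all 11582 tested genes, 5716 had fold changes below 0. The 4 other family genes tested had fold changes from 0.08 to 0.55, and the difference between these sets was not tested. Leaving Parp2 aside, 5 of 8 members (Parp1, Parp3, Parp8, Parp10 and Parp14) passed the threshold on the pool B side, where 22.0% of all tested genes did, and 0 passed on the pool A side, where 18.6% did. Parp6, Parp9 and Parp16 did not pass. The same 5 had CPM ranges that did not overlap between pools, always with pool B above, against 30.2% of all tested genes in that direction and 49.1% in either direction. The median log2 fold change of the 8 was -0.57. The summed level of the 8 was 537, 514 and 642 CPM with pool A and 1091, 1001 and 984 CPM with pool B. The count of 5 was the same under each of the 3 other scalings tried, and fell to 3 without pool A replicate 2 and to 4 when pool A replicate 1 or either of pool B replicates 1 and 3 was left out.

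**Figure D1:**
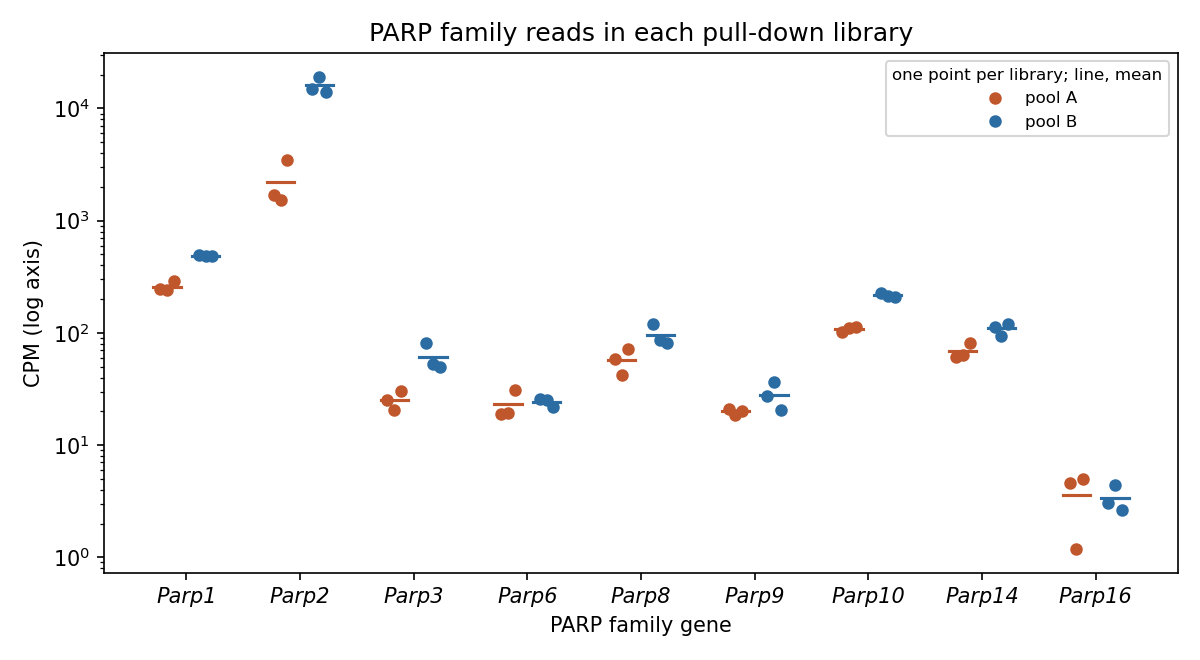
Level of each PARP family gene in CPM (log axis) in the 3 libraries of pool A and the 3 libraries of pool B, with a line at each mean. Parp1, Parp2, Parp3, Parp8, Parp10 and Parp14 show separate ranges, with all pool B points above all pool A points, while the ranges of Parp6, Parp9 and Parp16 overlap.

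Parp1 (ENSRNOG00000003084) encodes the enzyme that makes most of the ADP-ribose chains after DNA damage. It had 246, 239 and 289 CPM with pool A and 496, 488 and 481 CPM with pool B, from between 604 and 1455 counts. The pool B libraries were close to each other, with a coefficient of variation of 1.50% against 10.6% with pool A, and all lay above the highest pool A library. Its log2 fold change was -0.78 ± 0.13 (SE), and it stayed between -0.92 and -0.68 over the 15 alternatives run.

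Parp3 (ENSRNOG00000012865), which acts in the repair of double-strand breaks, had 25.2, 20.6 and 30.1 CPM with pool A and 81.1, 53.1 and 49.6 CPM with pool B. The lowest pool B library was above the highest pool A library, and pool B replicate 1 stood above the other two. Its log2 fold change of -1.14 ± 0.24 (SE) was the lowest among the members apart from Parp2, and it moved to -0.87 without pool B replicate 1. The gene rested on between 52 and 238 counts per library.

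Parp10 (ENSRNOG00000004361), a mono-ADP-ribosyltransferase with RNA recognition motifs, had the tightest replicates in pool A. Its level was 102, 110 and 114 CPM with pool A and 226, 214 and 207 CPM with pool B. The ranges were far apart relative to their width, with means of 109 ± 6 CPM (SD, n = 3) and 215 ± 10 CPM (SD, n = 3). Its log2 fold change was -0.84 ± 0.14 (SE), and it lay between -0.99 and -0.74 over the alternatives.

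Parp8 and Parp14 showed smaller differences, and their calls were lost without some of the libraries. Parp8 (ENSRNOG00000010824), a little-studied mono-ADP-ribosyltransferase, had 58.9, 41.9 and 71.8 CPM with pool A and 119.6, 86.0 and 80.6 CPM with pool B. On the log2 scale the fitted difference was -0.59 ± 0.20 (SE), and the call was lost without pool A replicate 2 (-0.42) or pool B replicate 1 (-0.39). Parp14 (ENSRNOG00000023334), a large macrodomain protein that acts with the transcription factor Stat6, had 60.8, 62.9 and 81.6 CPM with pool A. With pool B it had 112.8, 94.7 and 121.1 CPM. Its log2 fold change was -0.54 ± 0.17 (SE), and the call was lost without pool A replicate 1 (-0.47), pool A replicate 2 (-0.50) or pool B replicate 3 (-0.46). The ranges of both genes were separate, with the gap narrow next to their spread.

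The remaining 3 members had ranges that overlapped. Parp9 (ENSRNOG00000023463), which forms a complex with the ubiquitin ligase Dtx3l, had 21.2, 18.6 and 20.1 CPM with pool A and 27.3, 36.1 and 20.4 CPM with pool B (log2 fold change -0.32 ± 0.29 SE). Leaving out pool B replicate 2 gave -0.13, and leaving out pool B replicate 3 gave -0.50. Parp6 (ENSRNOG00000011199), a mono-ADP-ribosyltransferase, had 18.99, 19.4 and 30.7 CPM with pool A and 25.6, 25.2 and 21.9 CPM with pool B. The fitted log2 difference of 0.06 ± 0.28 (SE) changed sign with total counts alone (-0.07) and without pool A replicate 3 (-0.13). Parp16 (ENSRNOG00000029127), anchored in the membrane of the endoplasmic reticulum, had counts of 17, 3 and 16 with pool A and 9, 8 and 7 with pool B. At this depth its log2 fold change of 0.28 ± 0.70 (SE) leaves room for a difference in either direction, and leaving out 1 library at a time gave values from 0.04 (without pool A replicate 1) to 0.67 (without pool A replicate 2).

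Parp2 (ENSRNOG00000008892), the second chain-forming enzyme at DNA breaks, was judged apart because its row follows that of Rpph1 directly. Rpph1 encodes the RNA component of ribonuclease P, and in mammals both genes are known to start from a shared region in opposite directions. Parp2 had 1702, 1525 and 3471 CPM with pool A and 15050, 19233 and 14086 CPM with pool B. Rpph1 had 2504, 2338 and 4815 CPM with pool A and 15563, 25743 and 16416 CPM with pool B. Both had separate ranges, and their log2 fold changes were -2.73 ± 0.21 and -2.45 ± 0.21 (SE).

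Within each pool, Parp2 and Rpph1 had the same highest library. In pool A, replicate 3 stood above the mean of replicates 1 and 2 by a factor of 2.15 for Parp2 and 1.99 for Rpph1, against 1.29 for Tep1 (telomerase-associated protein), the next row on the other side. In pool B, replicate 2 was the highest library for both, while replicate 1 was above replicate 3 for Parp2 and below it for Rpph1. Parp2 counts per Rpph1 count were 0.680, 0.652 and 0.721 with pool A and 0.967, 0.747 and 0.858 with pool B. The ratio was higher in every pool B library than in any pool A library, although the gap (0.721 to 0.747) was narrow next to the spread within pool B. This difference in ratio was not tested. These are ratios of reads, not of levels per length.

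**Figure D2:**
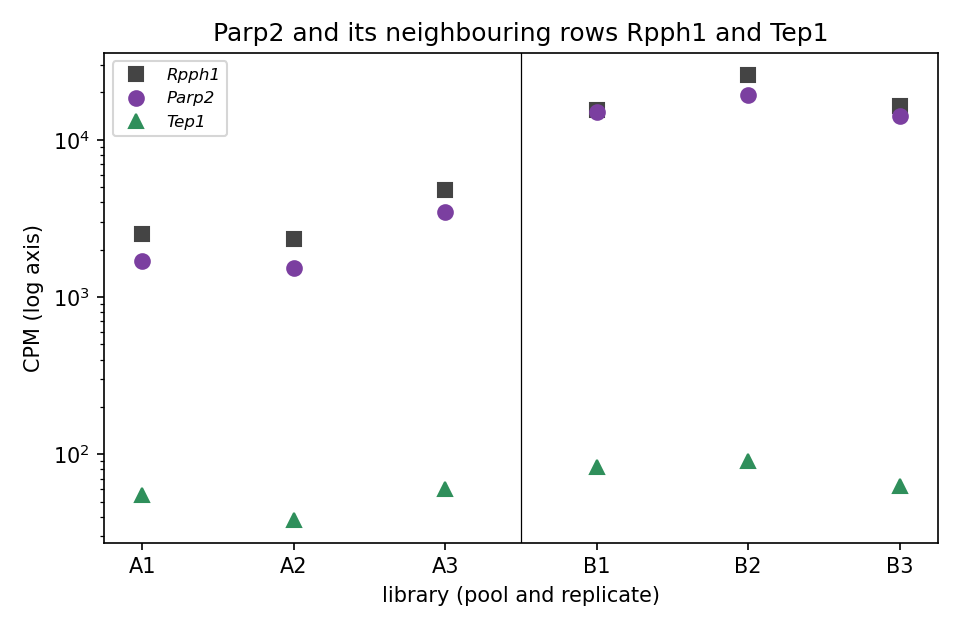
CPM (log axis) of Parp2 and its neighbouring rows Rpph1 and Tep1 in each library, pool A on the left and pool B on the right. The points of Parp2 lie just below those of Rpph1 in all 6 libraries, both with the highest pool A value in replicate 3 and the highest pool B value in replicate 2, while Tep1 stays between 38.0 and 90.9 CPM.

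Parp2 alone took between 74.8% and 84.4% of the family's reads with pool A and between 93.2% and 95.1% with pool B. It held between 0.153% and 0.347% of a library's counts with pool A, and between 1.41% and 1.92% with pool B. The other 8 members together held from 1299 to 3202 counts per library. Whether reads of Rpph1 were assigned to Parp2 was not tested, since the table does not give read positions. A sum over the whole family is therefore mainly the Parp2 row.

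Neighbours of the other members were set beside them, taking on each side the nearest row with a gene symbol and at least 10 counts in 3 libraries. No difference between a member and its neighbour was tested. Rrp9, a U3 small nucleolar ribonucleoprotein gene and the row after Parp3, went the other way, with 415, 370 and 378 CPM with pool A and 46.0, 30.7 and 53.0 CPM with pool B. The fitted log2 difference was 3.29 ± 0.17 (SE; edgeR adjusted p = 1.37e-14), against -1.14 for Parp3. Pcbp4, which encodes an RNA-binding protein and lies 2 rows before Parp3, was higher with pool B (-1.17 ± 0.17 SE; adjusted p = 2.13e-06). Parp3 thus lay between rows with opposite differences.

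Rows beside Parp10 had fold changes above 0, while those beside Parp1 lay on either side of 0. Plec, the cytoskeletal linker plectin and the row before Parp10, was higher with pool A (log2 fold change 0.60 ± 0.14 SE; edgeR adjusted p = 0.0011), and Grina, the row after, had 0.34 ± 0.21 (SE; adjusted p = 0.224). Lin9, a cell cycle gene 2 rows after Parp1, was, like Parp1, higher with pool B (-1.89 ± 0.25 SE; adjusted p = 6.1e-07), while Itpkb on the other side had 0.48 ± 0.44 (SE; adjusted p = 0.416). Dtx3l, the partner of Parp9 in the next row, had 13.6, 8.31 and 8.78 CPM with pool A and 16.4, 8.76 and 5.30 CPM with pool B (0.15 ± 0.47 SE; adjusted p = 0.83), so neither of this pair passed the threshold.

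The other neighbours lay on the side of their member in some cases and on the opposite side in others. Next to Parp8 at -0.59, Pelo had -0.61 ± 0.67 (SE; edgeR adjusted p = 0.505) and Emb -0.43 ± 0.25 (SE; adjusted p = 0.189), neither past the threshold. Tep1, beside Parp2, had -0.47 ± 0.20 (SE; edgeR adjusted p = 0.0587), with every pool B library above every pool A library. Clpx, a mitochondrial protease subunit beside Parp16, was higher with pool B (-1.10 ± 0.26 SE; edgeR adjusted p = 0.00133), and U5 on its other side had 0.47 ± 0.71 (SE; adjusted p = 0.641). Pkm, the pyruvate kinase gene beside Parp6, was higher with pool A (1.02 ± 0.15 SE; edgeR adjusted p = 4.38e-06), and Celf6 had -0.63 ± 0.47 (SE; adjusted p = 0.309). Kpna1 beside Parp9 had 0.59 ± 0.28 (SE; edgeR adjusted p = 0.0979) and Hspbap1 beside Parp14 had 0.44 ± 0.20 (SE; adjusted p = 0.0819), both without passing.

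**Figure D3:**
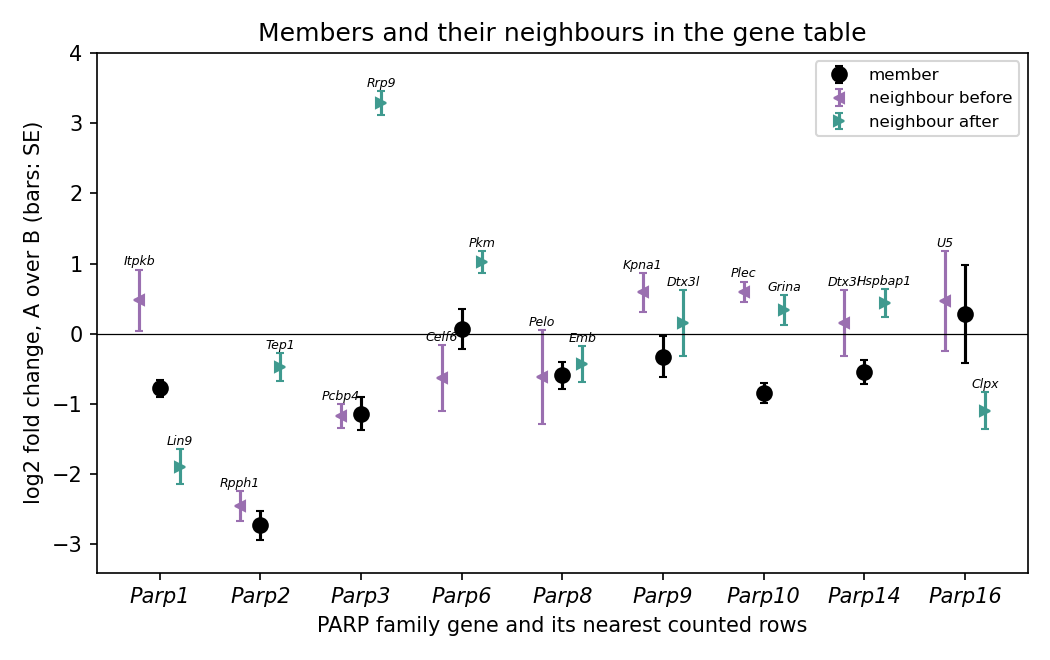
Log2 fold change of pool A over pool B with its standard error for the 9 PARP members (black) and the nearest counted row before and after each. Parp2 and Rpph1 lie together at -2.73 and -2.45, whereas Parp3 at -1.14 lies beside Rrp9 at 3.29, and Parp10 at -0.84 beside Plec at 0.60.

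Another 6 genes of the ADP-ribosyltransferase family were not among the members. Of these, 4 were tested, 1 passed, with more reads in pool A, and 0 passed in favour of pool B, against 18.6% and 22.0% of all tested genes. Zc3hav1, the zinc finger antiviral protein, which binds viral RNA and lacks transferase activity, had 79.8, 92.9 and 86.3 CPM with pool A and 66.8, 62.4 and 65.8 CPM with pool B. Its ranges were separate, and its log2 fold change was 0.55 ± 0.17 (SE; edgeR adjusted p = 0.0126). The call was lost with total counts alone and without pool A replicate 2, each of which left 0 of the 4 past the threshold.

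Tnks (tankyrase), which builds ADP-ribose chains on telomere and Wnt pathway proteins, had 87.9, 97.7 and 90.98 CPM with pool A and 79.4, 102.9 and 84.7 CPM with pool B. Its ranges overlapped (0.20 ± 0.17 SE; edgeR adjusted p = 0.366). Parp12 and Tiparp, both mono-ADP-ribosyltransferases, had low levels, with log2 fold changes of 0.08 ± 0.53 and 0.16 ± 0.67 (SE). Tnks2 and Parp11 had 0 counts in every library. The median log2 fold change of the 4 tested genes was 0.18, against -0.57 for the 8 members without Parp2 and 0.02 for all tested genes. The members were chosen with their pool differences seen, so this contrast can reflect that choice. It is a description and was not tested.

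**Figure D4:**
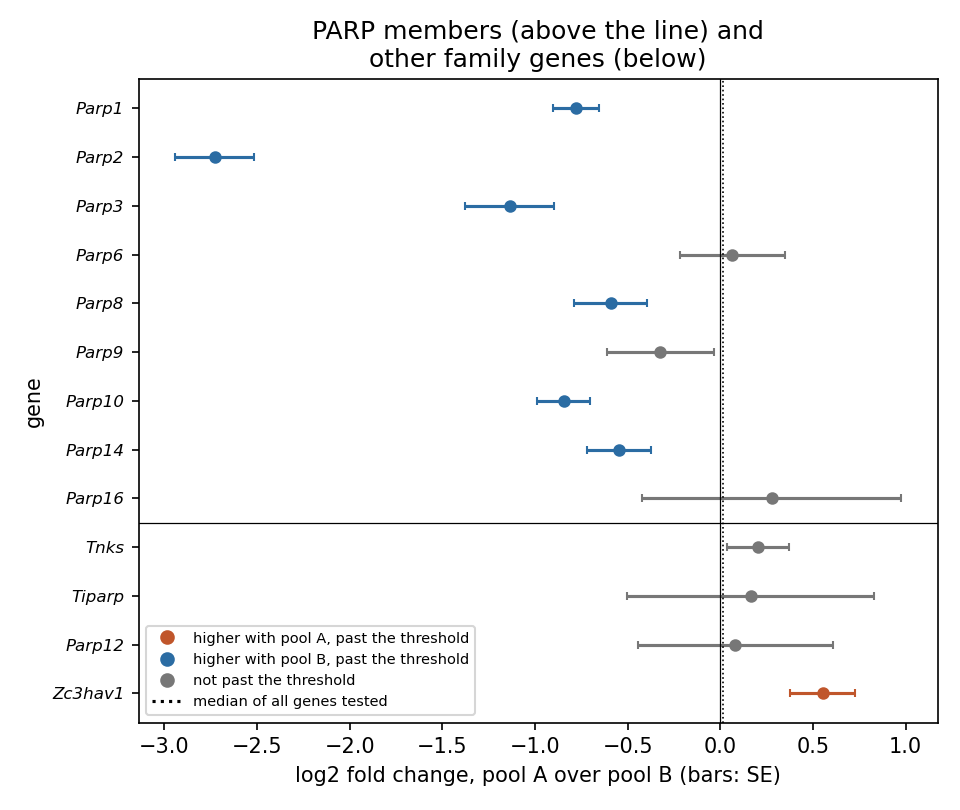
Log2 fold change of pool A over pool B with its standard error for the 9 members (above the line) and 4 other family genes (below), coloured by the call, with a dotted line at the median of all tested genes. The 6 members past the threshold lie between -2.73 and -0.54, and the 4 other genes between 0.08 and 0.55.

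Genes that remove or read ADP-ribose, together with the enzyme partners Hpf1 and Dtx3l, formed a list of 18, of which 14 were tested. Of the 14, 6 had more reads with pool B and 2 with pool A past the threshold, against 22.0% and 18.6% of all tested genes, and their median log2 fold change was -0.30. The lowest fold changes were those of a pair of readers. Rnf146, a ubiquitin ligase that recognises ADP-ribose chains, had 13.3, 15.0 and 19.5 CPM with pool A and 72.6, 59.1 and 72.3 CPM with pool B. The edgeR log2 fold change was -1.96 ± 0.24 (SE; edgeR adjusted p = 1.11e-07), and its ranges were far apart.

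H2afy, which encodes the macrodomain histone macroH2A, had a log2 fold change of -1.23 ± 0.15 (SE; edgeR adjusted p = 1.39e-07). Chd1l, a chromatin remodeller switched on by ADP-ribose chains, had one of -1.06 ± 0.22 (SE; adjusted p = 0.000328). Parg, the hydrolase that takes the chains apart, had 74.6, 94.1 and 115.8 CPM with pool A and 185.1, 188.3 and 158.9 CPM with pool B. Its difference of -0.76 ± 0.16 (SE; adjusted p = 0.000314) was close in size to that of Parp1. Xrcc1, the repair scaffold that binds these chains, was higher with pool B by -0.65 ± 0.18 (SE; adjusted p = 0.00446) and varied within pool A from 59.96 to 112.3 CPM. Hpf1, the factor that directs Parp1 and Parp2 to serine residues, went the other way, with 21.7, 24.5 and 17.9 CPM with pool A and 8.18, 12.6 and 11.7 CPM with pool B (1.14 ± 0.35 SE; adjusted p = 0.0106). The other 2 genes past the threshold were named after their values were seen. Macrod1, a macrodomain hydrolase that removes single ADP-ribose units, was higher with pool B (-1.03 ± 0.23 SE; edgeR adjusted p = 0.000793), and Nudt5, an ADP-ribose hydrolase, with pool A (0.90 ± 0.27 SE; adjusted p = 0.00955).

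**Figure D5:**
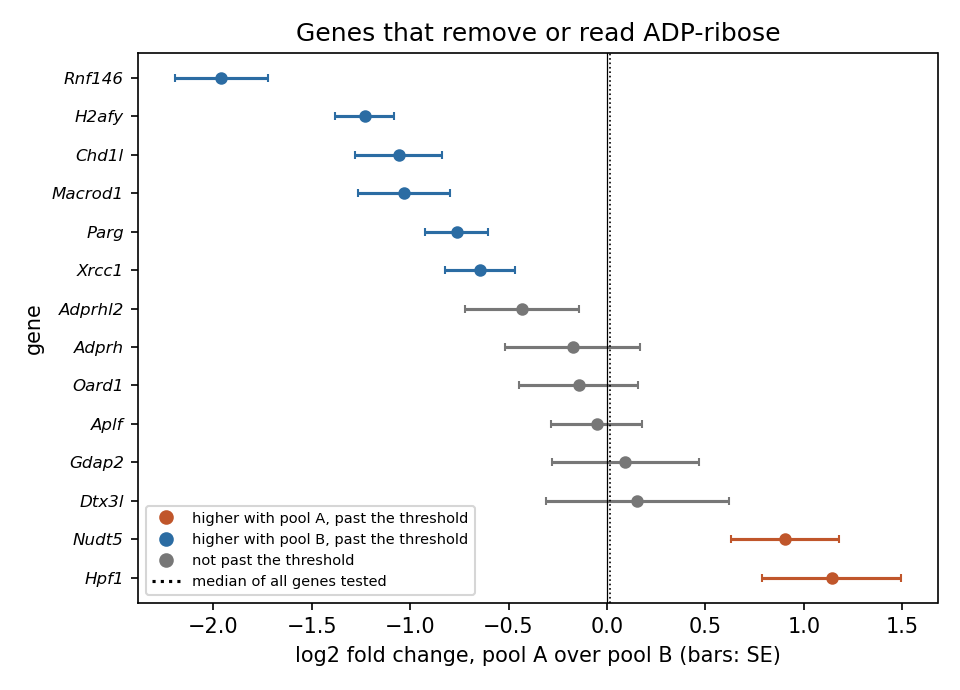
Log2 fold change of pool A over pool B with its standard error for 14 tested genes, in order of the fold change. They remove or read ADP-ribose, apart from the enzyme partners Hpf1 and Dtx3l. Rnf146 at -1.96 and H2afy at -1.23 are the lowest, and Hpf1 at 1.14 is the highest.

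Repair genes that work with Parp1 and Parp2 were called at a rate close to that of all genes. Of 20 genes for base excision and single-strand break repair, 19 were tested, 4 passed in favour of each pool, where 18.6% (pool A) and 22.0% (pool B) of all tested genes did, and the median log2 fold change was -0.09. Lig1 (DNA ligase 1) had 250, 319 and 330 CPM with pool A and 71.6, 66.3 and 64.7 CPM with pool B (log2 fold change 2.29 ± 0.15 SE; edgeR adjusted p = 1.42e-12). Ogg1 (8-oxoguanine glycosylase) and Lig3, the ligase that partners Xrcc1, were also higher with pool A, by 1.50 ± 0.31 and 0.97 ± 0.25 (SE). Tdp1, which clears blocked DNA ends, had 4.34, 5.14 and 4.71 CPM with pool A and 31.4, 50.4 and 43.1 CPM with pool B (-2.98 ± 0.34 SE; adjusted p = 3.3e-08). Fen1, the flap endonuclease, was higher with pool B by -1.06 ± 0.24 (SE; adjusted p = 0.000762), as was Xrcc1. Mutyh (0.90) and Pcna (-0.91) completed the 8 and were named after their values were seen. The ranges of Mutyh overlapped, with pool B replicate 2 (33.4 CPM) above pool A replicate 2 (30.8 CPM).

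The NAD synthesis genes, which supply the substrate of the family, had few reads. Of 15, 7 were tested and 1 passed, against 22.0% of all tested genes higher with pool B. This was Naprt, with 2.17, 4.75 and 1.57 CPM with pool A and 8.52, 13.1 and 13.2 CPM with pool B. On the log2 scale the fitted difference was -1.90 ± 0.59 (SE; edgeR adjusted p = 0.0112). The count was 0 without pool A replicate 3 or pool B replicate 3, and 0 with a minimum of 10 counts in every library. Fold changes of all 7 were below 0, with a median of -0.57, where 5716 of all 11582 tested genes lay below 0. Those of Nampt (-0.08), Nmnat1 (-0.09) and Nmnat3 (-0.05) were smaller in size than their SE.

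Since Parp9, Parp10 and Parp14 are known as interferon-induced genes, 18 interferon response genes were set beside them. Of the 9 tested, 4 were higher with pool B and 1 with pool A, against 22.0% and 18.6% of all tested genes, and the median log2 fold change was -0.36. Irf1, an interferon regulatory factor, had 26.6, 19.4 and 26.0 CPM with pool A and 67.5, 70.1 and 67.3 CPM with pool B (-1.36 ± 0.22 SE; edgeR adjusted p = 9.86e-06). Stat2 and Irf9, parts of the factor that binds the interferon-type element, had -1.18 ± 0.27 and -1.14 ± 0.32 (SE). Bst2 (tetherin), a membrane protein that holds back viruses, was higher with pool A (0.74 ± 0.24 SE; adjusted p = 0.0134), although its ranges overlapped. Ifit1, Oas1a, Mx1 and Mx2 had 0 counts in every library. The count of 5 past the threshold was kept only with total counts alone, with thinned counts and without pool A replicate 3. It was 3 without pool A replicate 1 or pool B replicate 2, and 4 under every other alternative.

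The genes most like 3 of the members over the 6 libraries were found by the root mean square difference of log2 CPM around each gene's mean. For Parp1 they were Pabpc4 (0.046), Cant1 (0.053) and LOC100294508 (0.062). For Parp3 they were Mesd (0.11), AABR07044362.3 (0.11) and LOC687399 (0.12). For Parp16 they were Tmprss9 (0.14), Lyrm4 (0.16) and Rims4 (0.16), all with few counts, as for Parp16 itself.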

How the data were processed

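The authors deposited a table of counts per gene for 6 libraries, with Ensembl gene identifiers and names, and a mean signal per pool that was not used. The submitters' processing notes name STAR and featureCounts; versions, build, annotation and strand setting are not given in the sources used here. Counts were taken as raw, since they are whole numbers with unequal totals.

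Pool A was set against pool B by edgeR (version 4.0.16, under R 4.3.3) over the 6 libraries (TMM, edgeR's expression filter by pool, quasi-likelihood test, pool as the only term). All 9 matched members passed that filter. Two-sided p-values were adjusted over 11582 genes (Benjamini-Hochberg), and standard errors come from the fold change and the F statistic. Alternatives were DESeq2 1.42.0, limma-voom (limma 3.58.1), other scalings and filters, thinned counts, a replicate block and leaving out each library. Neighbouring rows can share reads, and floors cover counting error only.

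The members and gene lists were chosen with earlier results of these data known. Text names all members, up to 4 list genes with the smallest adjusted p, set partners of members, and nearest rows; Macrod1, Nudt5, Mutyh and Pcna were added after their values were seen, to complete the called genes of 2 lists. Of the 18 genes listed as ADP-ribose removers, readers or enzyme partners, 17 were matched. Levels of Neat1 and of 1 list gene are not reported here. Replicates of a pool differed by more than sampling noise (chi-square per degree of freedom from 5.86 to 20.7). Same-numbered libraries did not deviate together (r of 0.04, -0.02 and 0.02), so numbers were not taken as pairs.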

Additional observations from a re-analysis of the deposited data

How the results depend on the processing

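Of 133 refits of the members, 126 kept their direction and side of the threshold, 5 lost the call (Parp8 without pool A replicate 2 or pool B replicate 1; Parp14 without pool A replicate 1, pool A replicate 2 or pool B replicate 3), and 2 changed sign (Parp6, to -0.070 with total counts alone and -0.13 without pool A replicate 3, within -0.13 to 0.18 without a library). Members higher with pool B numbered 6, and 4 to 6 without a library. Relative to TMM, the median log2 fold change of all genes (0.02) was -0.13 with total counts and 0.12 with upper-quartile factors, and that of the 8 members without Parp2 was -0.70 and -0.47. Over the table, 1709 to 2515 genes were higher with pool A and 2194 to 2922 with pool B. With the replicate block no member changed its call, list counts were the same except 4 interferon response genes in place of 5, and 21.4% of genes were higher with pool B. Called genes numbered 0 of the other family genes with total counts alone, and 0 to 1 without a library. NAD synthesis genes numbered 0 with at least 10 counts in every library, by a filter that removes Naprt, and 0 to 1 without a library. Interferon response genes numbered 3 to 5 without a library, and 4 or 5 under the other alternatives. The other causes were not tested. The count of a library limits what can be said of Parp16, which had at most 17 counts in any of them.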

Other observations

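Genes that encode partners of the family, chosen after their values were seen, lay on opposite sides. Parpbp, whose product binds Parp1, had 38.5, 42.7 and 42.7 CPM with pool A and 26.9, 35.6 and 23.8 CPM with pool B (log2 fold change 0.68 ± 0.24 SE; edgeR adjusted p = 0.024). Tnks1bp1, whose product binds tankyrase, had 390, 343 and 426 CPM with pool A and 841, 833 and 897 CPM with pool B (-1.01 ± 0.13 SE; adjusted p = 2.43e-07). Both genes had separate ranges.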
